A study of Mus musculus with 6 samples.

Results

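The adipogenic transcription factors examined here were 10 genes that drive or sustain the conversion of preadipocytes into fat cells: Pparg, Cebpa, Cebpb, Cebpd, Klf5, Klf15, Srebf1, Stat5a, Ebf1 and Ebf2. A probe was taken when the annotation of the array gave it exactly 1 gene symbol and that symbol was one of these names. All 10 genes had a probe, and with 2 probes for Srebf1 this made 11 of the 36227 probes, all of them tested. The RNA came from 3T3-L1, mouse preadipocytes of an established line, which were grown to confluence, turned into adipocytes with an adipogenic cocktail and harvested 10 days after differentiation. The control group (3 arrays) carried the Tet-off plasmid alone, which encodes a tetracycline-controlled activator, and the UCP1 group (3 arrays) expressed uncoupling protein 1, the brown fat carrier that lets protons leak back into mitochondria. The labels name neither the promoter that drove UCP1 nor whether tetracycline was given, do not state whether the UCP1 cells also carried the Tet-off plasmid, and do not say whether a line was 1 clone. The titles of the UCP1 arrays end in 1, 2 and 3 directly after the protein's abbreviation, and the labels do not settle whether this digit numbers the arrays or belongs to a protein name. The source field names uncoupling protein 1 for all 3, and the digit is used here as an array number. Separate cultures behind the arrays of a group are not named either, and the p-values therefore rest on array-to-array spread that may be technical.

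Adipocyte differentiation runs as a cascade of transcription factors. C/EBPβ and C/EBPδ appear soon after the inducing hormones, together with Klf5 and with Stat5a, the signal transducer of growth hormone and prolactin receptors, and they switch on PPARγ and C/EBPα, which then maintain each other and the genes of the mature fat cell. The early B-cell factors Ebf1 and Ebf2 act beside them, Srebf1 drives genes of fatty acid synthesis, and Klf15 is a glucocorticoid-induced factor that supports the glucose transporter Slc2a4 and amino acid breakdown.

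With all arrays, Cebpd, Cebpa and Cebpb had the lowest differences among the brighter member probes, an order that Ebf2 entered without control 1 or without UCP1 array 1, so the upstream regions of Cebpb and Cebpa are shown, together with that of the most downstream of the Pparg starts. Each sequence is the 250 bases before a transcription start in RefSeq, GRCm38.p6, plus strand, 5′ to 3′. Capitals mark matches on either strand to the C/EBP core TTGCNNAA, the CCAAT box, the GC box written GGGCGG, the TATA box written TATAAA, the E-box written CACGTG and the STAT core TTCNNNGAA. Overlapping matches run together, as at the first capitals of Cebpb, where 2 GC boxes share letters.
Cebpb, chr2:167688665-167688914: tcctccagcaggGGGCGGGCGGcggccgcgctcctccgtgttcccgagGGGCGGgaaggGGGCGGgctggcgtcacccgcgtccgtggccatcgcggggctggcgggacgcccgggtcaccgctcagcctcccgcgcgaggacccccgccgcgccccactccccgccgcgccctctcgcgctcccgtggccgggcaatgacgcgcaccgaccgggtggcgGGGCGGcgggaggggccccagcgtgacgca
Cebpa, chr7:35119043-35119292: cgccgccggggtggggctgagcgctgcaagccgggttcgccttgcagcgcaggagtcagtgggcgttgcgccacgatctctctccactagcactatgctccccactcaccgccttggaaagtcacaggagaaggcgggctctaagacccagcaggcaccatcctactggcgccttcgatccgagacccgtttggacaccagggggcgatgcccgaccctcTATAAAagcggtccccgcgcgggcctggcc
Pparg, chr6:115421816-115422065: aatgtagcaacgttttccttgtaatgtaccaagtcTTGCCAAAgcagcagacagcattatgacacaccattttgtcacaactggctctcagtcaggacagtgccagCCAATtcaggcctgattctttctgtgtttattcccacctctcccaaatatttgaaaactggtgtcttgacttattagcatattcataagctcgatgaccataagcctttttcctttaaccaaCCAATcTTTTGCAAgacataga
The sequence table held 13 starts for 7 of the 10 genes and no start for Cebpd, Klf5 or Ebf2. The window of Cebpd is therefore not shown, and the counts below leave it out. A C/EBP core was found at 1 of these 13 starts, the Pparg start shown, which carried it 2 times, at 215 and 16 bases before the start, whereas 9.56% of all 32851 starts in the table carried it. That window also held CCAAT at 144 and 22 bases before the start, a motif present in 33.8% of all starts and in 5 of the 13. The Cebpb window held 5 GC boxes, which 32.7% of all starts and 7 of the 13 carried, and was 81.6% G and C, against a median of 52.4%. The Cebpa window held none of these but a TATA box 30 bases before the start, a motif found in 12.4% of all starts and 2 of the 13. The E-box was found at the Klf15 start alone among the 13, in 6.02% of all starts, and the STAT core at none of the 13, in 7.02% of all starts. These letter matches describe the windows and are not evidence of binding.

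The arrays were compared on intensities that the authors had scaled to medians of 1.04 to 1.05. The bright ends were not equal. A percentile near the top of the intensities was 279, 255 and 258 on the control arrays. The same percentile was 225, 223 and 185 on the UCP1 arrays. The highest reading was 683 on UCP1 array 3 and 921 to 950 on the other arrays. The part of this in the differences of bright probes was not tested beyond the other scalings given below. The Ucp1 probe served as a check of the labels and read 0.222, 0.232 and 0.278 on the control arrays and 2.34, 2.02 and 1.54 on the UCP1 arrays. All 3 arrays of the UCP1 group read above all 3 controls. Of 7 measured adipocyte markers, 6 lay above the array median on all 6 arrays, led by Adipoq, and 1, Lipe, lay at or below it on all 6. The summed adipocyte marker signal was 3408 to 3919 in controls and 2877 to 3952 in UCP1, with 0 markers called in either direction by limma (1 had an unadjusted p under 0.05, higher in UCP1). Of 11 preadipocyte and fibroblast markers 4 were higher in UCP1 (Pdgfra, Thy1, Dcn and Lum), and their summed signal was 759 to 1019 in controls and 832 to 1076 in UCP1. Of 8 osteoblast and chondrocyte markers 2 were lower (Ibsp and Alpl), summing to 9.40 to 10.8 in controls and 6.31 to 7.18 in UCP1, and of 8 macrophage and leukocyte markers Lyz2 alone was higher, the sums being 18.0 to 23.8 and 20.4 to 21.9. Of 9 skeletal muscle markers 6 and of 8 endothelial markers all 8 lay at or below the array median on every array, with 0 called by limma, where 1 muscle and 0 endothelial markers had an unadjusted p under 0.05. In the RNA of a whole culture, fewer cells of a type and less RNA per cell cannot be told apart, and the part of these markers in the differences below was not tested.

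Cebpd was the 1 member probe of 11 that passed the threshold, and it fell. Across all 36116 tested probes 2.03% were called lower and 0.800% higher (limma with intensity trend, Benjamini-Hochberg adjusted p under 0.05). The 8 member probes at or above the median level had differences below 0 in the deposited scaling, as did 64.5% of all such probes, with Pparg, Klf5 and Stat5a turning above 0 after quantile normalization. The 3 dim ones, Klf15 and both Srebf1 probes, were too variable to give a direction. Of the 11 probes 4 had an unadjusted p under 0.05, as did 17.1% of all probes. In 2 of the 11, Cebpd and Cebpb, every UCP1 array lay below every control array, a separation seen in 14.0% of all probes, 0 lay wholly above, as 7.89% of all probes did, and the groups overlapped in the other 9. The median difference over the 11 probes was -0.40 on the log2 scale, against -0.06 over all tested probes. For the 8 member probes at or above the median level, which leave out the 3 dim ones, it was -0.30, against -0.09 for all such probes. These medians belong to the deposited scaling. After quantile normalization the differences of the 8 ran from -0.86 for Cebpd to 0.12 for Stat5a, and the median over all tested probes was 0.02.

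**Figure D1:**
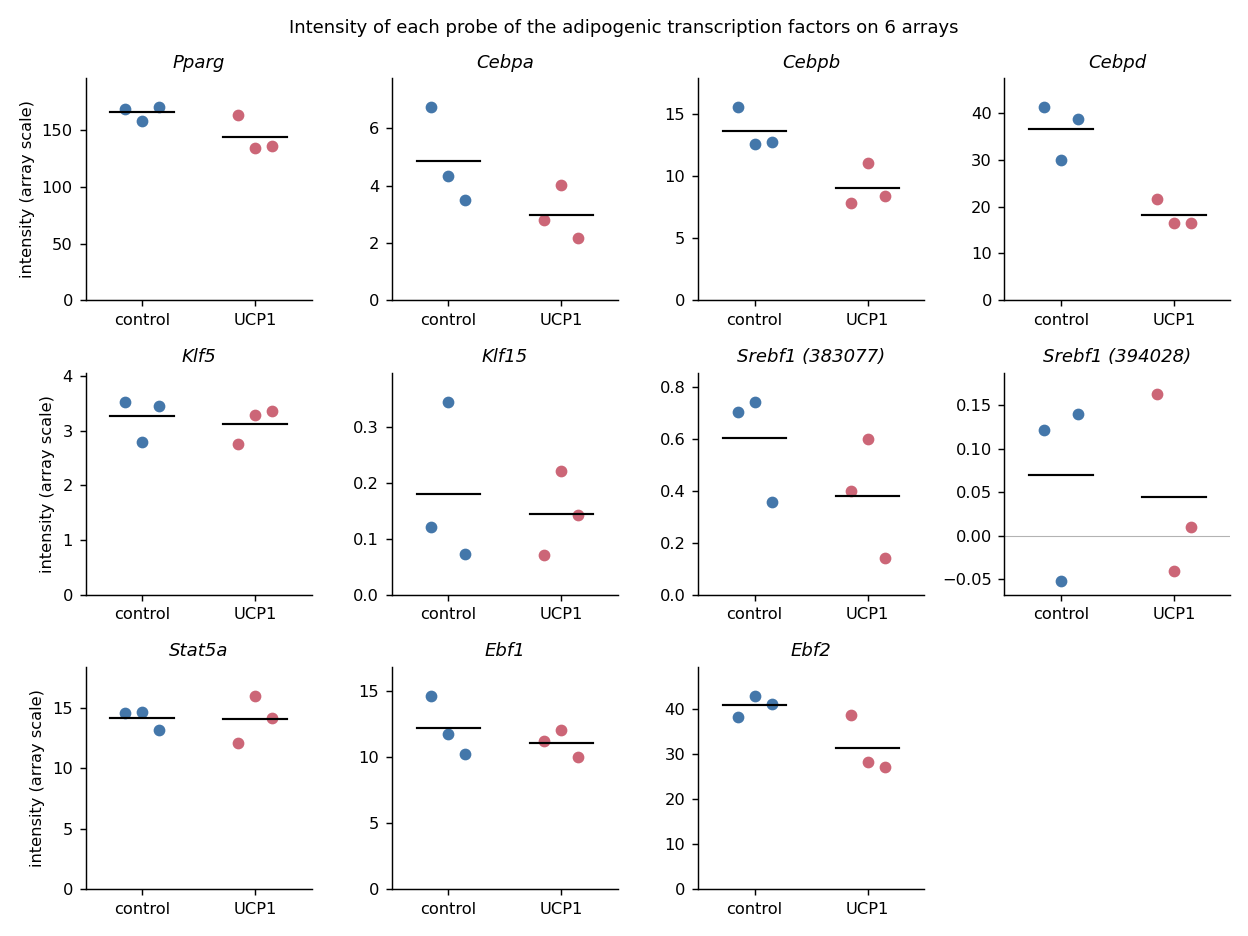
Intensity on the array scale (vertical axes, each from 0 or from below the lowest value, with its own range) for the 11 probes, with 1 point per array and a black line at the group mean (3 control and 3 UCP1 arrays). Cebpd and Cebpb are the panels in which no UCP1 point reaches a control point. The panels of Klf15 and of both Srebf1 probes span only small readings, none above 0.742.

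Among the factors that act early, Cebpd, the gene of C/EBPδ, showed the clearest separation. The arrays read it 10 days after differentiation, so its early rise was not measured. Its probe read 41.1, 30.0 and 38.7 on the control arrays and 21.6, 16.5 and 16.4 on the UCP1 arrays. The highest UCP1 reading stayed below the lowest control reading, and UCP1 arrays 2 and 3 were nearly equal. The group means were 36.6 ± 5.82 (SD, n = 3) and 18.2 ± 2.96 (SD, n = 3). On the log2 scale Cebpd fell by 1.01 ± 0.153 (SE; limma, adjusted p = 0.00685), 2.02-fold, with a 95% interval of -1.34 to -0.68 on that scale. It also passed after quantile normalization, at -0.86 (adjusted p = 0.00434 by limma). The call was lost without UCP1 array 3, at -0.94 (limma, adjusted p = 0.0651) and, with all arrays, under eBayes fitted without a trend (adjusted p = 0.222) or a plain unmoderated test (adjusted p = 0.225).

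Cebpb, the gene of C/EBPβ, which cAMP-raising agents induce early in differentiation, lay just outside the threshold. It read 15.5, 12.6 and 12.7 on the control arrays and 7.80, 11.0 and 8.37 on the UCP1 arrays. The groups did not overlap, but UCP1 array 2 came close to controls 2 and 3. The log2 difference was -0.59 ± 0.146 (SE; limma, adjusted p = 0.0539), a control level 1.51-fold that of UCP1 with a 95% interval of 1.21 to 1.88. It passed in 5 of the 12 alternatives that kept all arrays, with adjusted p from 0.0191 to 0.0441 by limma, and without UCP1 array 2 (-0.74, adjusted p = 0.00688). After quantile normalization it did not pass, at -0.47 (limma, adjusted p = 0.151).

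Klf5, a zinc finger factor that C/EBPβ and C/EBPδ switch on, read 3.53, 2.80 and 3.45 in controls and 2.75, 3.28 and 3.35 in UCP1. The groups lay on top of each other, with 1 low array in each. The difference of -0.06 had a 95% interval of -0.37 to 0.25 on the log2 scale, so a change of the size seen for Cebpd lay outside it. Stat5a read 14.6, 14.7 and 13.2 in controls and 12.1, 16.0 and 14.2 in UCP1, with both the lowest and the highest reading in the UCP1 group. Its difference of -0.01 had an interval of -0.29 to 0.26. Both were above at least 66.3% of the probes of their array on every array. The direction of both turned with the scaling, to 0.01 for Klf5 and 0.12 for Stat5a after quantile normalization, and in neither case did the difference pass (limma, adjusted p = 0.873 and 0.974 in the deposited scaling).

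Pparg, the nuclear receptor that governs the fat cell programme and the target of the glitazone drugs, was bright in both groups. It read 169, 158 and 170 on the control arrays and 163, 134 and 136 on the UCP1 arrays, brighter than 96.9% to 98.4% of all probes on the same array. UCP1 array 1 lay among the controls, while UCP1 arrays 2 and 3 lay below all of them. The difference was -0.21 ± 0.155 (SE) on the log2 scale, with a 95% interval of -0.54 to 0.13 (limma, adjusted p = 0.556). Its direction turned with the scaling, to 0.06 after quantile normalization and 0.03 after cyclic loess. The files do not say which transcript of Pparg the probe reads, so the products of the separate starts cannot be told apart.

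Cebpa, the gene of C/EBPα, the partner of PPARγ in the mature fat cell, had, with all arrays, the second lowest difference among the 8 brighter member probes but a wide spread in both groups. It read 6.72, 4.33 and 3.50 in controls and 2.79, 4.01 and 2.16 in UCP1. Control 1 stood high, at 1.92 times the lowest control, and UCP1 array 2 lay above control 3. The difference was -0.69 ± 0.248 (SE) on the log2 scale with a 95% interval of -1.23 to -0.15, and it did not pass (limma, adjusted p = 0.167). It moved to -0.43 without control 1 (adjusted p = 0.463) and to -0.93 without UCP1 array 2, where it passed (limma, adjusted p = 0.0334). It kept its direction under quantile normalization, at -0.61, and cyclic loess, at -0.63.

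The C/EBP probes shared some of their order across the arrays. Control 1 was the highest of the 6 arrays for Cebpa, Cebpb and Cebpd. UCP1 array 2 was the highest UCP1 array for Cebpa and Cebpb, but not for Cebpd, where UCP1 array 1 was. This order was not particular to the C/EBP genes. Control 1 was also the highest array for Klf5 and Ebf1, and UCP1 array 2 the highest UCP1 array for Stat5a and Ebf1. Among the other C/EBP genes measured, Cebpg, a family member without an activating region, fell from 29.1 ± 3.04 to 19.2 ± 3.14 (SD, n = 3), 1.52-fold (limma, adjusted p = 0.0415), and Cebpe and Ddit3, which encodes the inhibitory partner CHOP, were measured at -0.56 and -0.53 without passing. All 3 lay below 0, as did 60.1% of all genes, and 1 of the 3 was called, against 2.92% of all genes called lower. The error of Cebpe (SE 0.718) was larger than its difference, so Cebpe gives no direction.

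**Figure D2:**
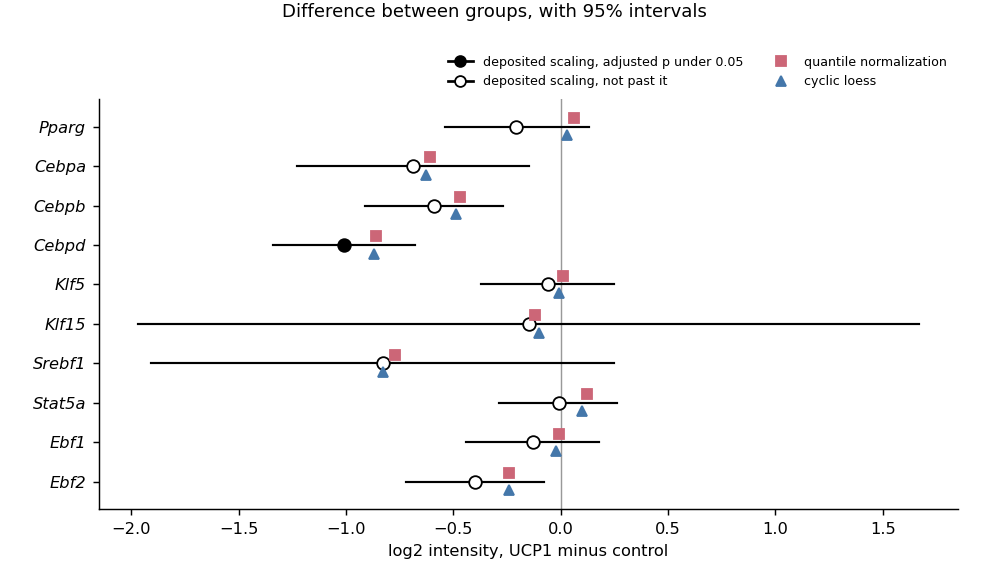
Difference in log2 intensity, UCP1 minus control, for the brightest probe of each of the 10 genes: circles with 95% intervals from limma in the deposited scaling (filled where adjusted p was under 0.05), squares after quantile normalization and triangles after cyclic loess. Cebpd is the filled circle at -1.01, Pparg and Stat5a cross 0 under both other scalings and Klf5 after quantile normalization, while the other 7 genes stay left of 0 under all 3 scalings, and the intervals of Klf15 and Srebf1 are the widest.

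Ebf2, a factor associated with brown and beige fat precursors, was lower on UCP1 arrays 2 and 3 and not on UCP1 array 1. It read 38.3, 42.9 and 41.1 in controls and 38.7, 28.1 and 27.2 in UCP1. UCP1 array 1 lay just above control 1, so the groups overlapped. The difference was -0.40 ± 0.147 (SE) on the log2 scale, with a 95% interval of -0.72 to -0.08 (limma, adjusted p = 0.179). Without UCP1 array 1 it was -0.56 and passed (limma, adjusted p = 0.0160), and after quantile normalization it was -0.24 and did not (adjusted p = 0.242). Ebf1, its close relative, read 14.6, 11.7 and 10.2 in controls and 11.2, 12.0 and 9.98 in UCP1. Its UCP1 readings fell within or just below the control range, and the difference was -0.13 with an interval of -0.44 to 0.18 (limma, adjusted p = 0.701). Between the scalings it ran from -0.13 in the deposited one to -0.01 after quantile normalization.

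Srebf1 and Klf15 were dim in both groups, and these probes support no statement on direction. The brighter Srebf1 probe (feature 383077) read 0.701, 0.742 and 0.358 in controls and 0.397, 0.599 and 0.140 in UCP1, above 8.91% to 43.4% of the probes of its array. UCP1 array 2 lay above control 3, and the difference of -0.83 had an interval of -1.91 to 0.25 (limma, adjusted p = 0.443). The difference was -0.23 without UCP1 array 3. The other Srebf1 probe (feature 394028) read 0.122, -0.0522 and 0.140 in controls and 0.163, -0.0401 and 0.0102 in UCP1, with 2 readings below 0, so no fold is given for it. Klf15 read 0.121, 0.346 and 0.0728 in controls and 0.0704, 0.221 and 0.143 in UCP1. Its readings spanned 4.75-fold among the controls alone, and the interval of its difference, -1.97 to 1.67, covered a fall and a rise alike (limma, adjusted p = 0.951).

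A ratio of each member to Pparg on the same array does not depend on the factor by which an array was scaled. It does depend on the Pparg probe, which lay near the bright end, where the arrays were not equal. The Pparg difference itself was -0.21 in the deposited scaling and 0.06 after quantile normalization. Its part in the ratios was not tested. For Cebpd this log2 ratio was -2.04, -2.40 and -2.13 on the control arrays and -2.92, -3.02 and -3.05 on the UCP1 arrays. The groups lay apart, and the 3 UCP1 values were closer together than the controls. The ratio was lower in UCP1 by a difference of -0.81 (exact permutation test, two-sided, p = 0.1, the smallest value 3 against 3 arrays can give, so that no ratio could pass 0.05), and it was -0.92 after quantile normalization. The ratios of the groups did not overlap in 1 of the 9 genes compared, Cebpd, while over all 17984 genes read by 1 probe the ratio to Pparg lay wholly lower in UCP1 in 6.37% and wholly higher in 22.6%. With 1 separated gene of 9, how often members separate by this ratio cannot be compared with these shares. For Cebpb the ratio difference was -0.39 (exact p = 0.3) and for Cebpa -0.49 (exact p = 0.3), with UCP1 array 2 within the control range for both. With 1 array left out these moved between -0.59 (without UCP1 array 2) and -0.20 (without UCP1 array 1) for Cebpb, and between -0.77 (without UCP1 array 2) and -0.24 (without control 1) for Cebpa, whose value was -0.31 without UCP1 array 3. Ebf2, at -0.19 (exact p = 0.2), overlapped through UCP1 array 1 and ran from -0.26 to -0.12 with 1 array left out, the latter without control 2. For Cebpd the range was -0.91 to -0.73. The differences of Klf5 (0.15), Stat5a (0.19) and Ebf1 (0.08) lay above 0 in the deposited scaling, and those of Klf5 and Ebf1 turned below 0 after quantile normalization, at -0.05 and -0.06.

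**Figure D3:**
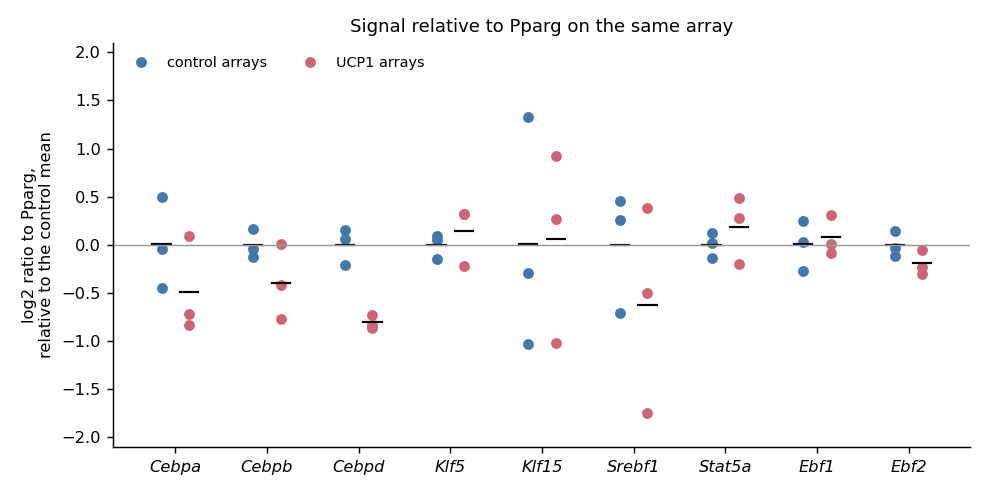
Log2 ratio of each gene's brightest probe to the Pparg probe on the same array, drawn relative to the mean ratio of the control arrays (vertical axis, log2 units), with 1 point per array and black lines at the group means. The 3 UCP1 points of Cebpd lie together around -0.81, below its 3 control points, and in the other 8 genes the groups overlap, against 6.37% of all genes lying wholly lower and 22.6% wholly higher by this ratio.

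The relatives and partners of these factors were read from lists of 246 entries in 11 groups, of which 218 were measured, each gene by its brightest probe. Over all 18014 genes read this way 2.92% were called lower and 1.13% higher, with a median difference of -0.08. Of all these genes 60.1% lay below 0, and 49.0% after quantile normalization. In the families of the members, 3 of 29 relatives fell and 0 rose, with a median of -0.29, and -0.26 after quantile normalization, where 3 fell and 1 rose. Of 14 Klf genes 2 fell: Klf13 read 23.5, 21.2 and 20.0 in controls and 12.3, 12.1 and 8.31 in UCP1, and fell by 1.00 in log2 intensity (adjusted p = 0.00727 by limma), and Klf3, which represses adipogenesis, fell 1.78-fold from 2.71 ± 0.413 to 1.51 ± 0.163 (limma, adjusted p = 0.0188). The other probe of Klf13, at -0.88, did not pass. By limma 0 of the 5 Stat genes passed (1 had an unadjusted p under 0.05), all of them below 0, Stat5b at -0.54. The error of Stat4 (-0.45, SE 0.648) was larger than its difference, so Stat4 gives no direction. That of Stat2 (-0.30, SE 0.286) was nearly as large as its difference. Of the 5 receptors of the PPAR and RXR families 0 passed by limma (3 had an unadjusted p under 0.05), and their differences ran from -1.22 to 0.54.

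Other factors that favour adipogenesis included 4 of 36 that fell and 1 that rose, with a median of -0.22 (-0.10 after quantile normalization, where 3 fell and 2 rose). Hmga2, a chromatin protein of proliferating mesenchymal cells, fell by 1.00 on the log2 scale, and its other probe, at -0.50, did not pass. Ppargc1b, a coactivator of mitochondrial and lipid genes, read 14.6, 15.1 and 13.9 in controls and 9.30, 7.07 and 7.50 in UCP1, and fell 1.83-fold (limma, adjusted p = 0.00485). Plac8, which acts upstream of Cebpb in brown fat, fell 1.75-fold, and Egr2 (Krox20), an immediate early factor that induces Cebpb, fell 1.70-fold from 7.64 ± 0.417 to 4.60 ± 1.25. Egr2 did not pass after quantile normalization (limma, adjusted p = 0.0712). The gene that rose, named after its values were seen, was Snai2, at 0.67.

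Among factors that oppose adipogenesis 3 of 36 rose and 1 fell, with a median of -0.02 (0.09 after quantile normalization, where 4 rose and 0 fell). Nr2f1, an orphan nuclear receptor, read 3.21, 2.66 and 2.63 in controls and 5.80, 5.99 and 5.45 in UCP1 and rose 2.04-fold (limma, adjusted p = 0.00196), while its other probe, at -0.27, went the opposite way without passing. Runx1t1, a corepressor that restrains C/EBPβ, rose 1.63-fold from 14.4 ± 0.420 to 23.6 ± 3.17, and of its other 2 probes 1 was called, at 0.62, and 1 was at 0.04. Zfp521, which binds and inhibits Ebf1, read 9.78, 8.92 and 7.78 in controls and 16.8, 12.2 and 13.2 in UCP1, a rise of 1.59-fold (limma, adjusted p = 0.0304). Smad2, a mediator of TGF-β signals, fell by 0.59 on the log2 scale and did not pass after quantile normalization (limma, adjusted p = 0.0517).

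Genes listed as targets of PPARγ or of a C/EBP factor went both ways. Of 26 measured targets 4 fell and 1 rose, with a median of -0.17 that turned to 0.07 after quantile normalization, where 4 fell and 2 rose. Cidea, a lipid droplet protein, read 13.4, 11.9 and 14.1 in controls and 4.59, 3.57 and 4.28 in UCP1, 3.17-fold lower (limma, adjusted p = 0.00013). Pex11a, a peroxisome division protein, fell 2.21-fold and Klb, the coreceptor of FGF21, fell 2.06-fold. Lep, the leptin gene and a C/EBPα target, rose from 1.19 ± 0.0367 to 2.49 ± 0.629. The fourth target that fell, Slc2a4, was also the 1 of 10 Klf15 targets that was called; it read 12.8, 9.97 and 10.1 in controls and 5.95, 7.38 and 6.26 in UCP1, 1.67-fold lower (limma, adjusted p = 0.0152), and its other probe, at -0.44, did not pass. The median of the Klf15 targets was -0.40, and -0.26 after quantile normalization.

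Of 18 Srebf1 targets 3 fell and 1 rose, with a median of -0.26, and a median of -0.08 under quantile scaling, under which 1 fell and 1 rose. The desaturase gene Scd2 read 188, 148 and 146 in controls and 69.7, 118 and 79.7 in UCP1, and fell 1.84-fold, without passing after quantile normalization (limma, adjusted p = 0.145). The citrate carrier gene Slc25a1 fell 1.71-fold, Fads2, a fatty acid desaturase, fell 1.48-fold while its other probe stood at 0.50 (limma, adjusted p = 0.111 for the falling probe after quantile normalization), and the elongase gene Elovl6 rose 1.48-fold. Of the 9 genes that process or restrain SREBP proteins 0 passed by limma, while 5 had an unadjusted p under 0.05, and all 9 lay below 0 in both scalings, where 60.1% and 49.0% of all genes did, with a median of -0.34 (-0.27 after quantile normalization). Those with the smallest p were Mbtps1, the site-1 protease that cleaves SREBPs, at -1.08 (limma, adjusted p = 0.107), with its other probe at 0.00, and Pgrmc1, at -0.43 (adjusted p = 0.141).

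The Stat5 targets and the receptors and kinases around Stat5a were counted next. Of 12 Stat5 targets 1 fell, Socs2, a feedback inhibitor of growth hormone signalling, which fell 1.44-fold from 10.2 ± 1.18 to 7.02 ± 0.217 on its brighter probe, its other probe standing at 0.05. It did not pass after quantile normalization (limma, adjusted p = 0.0810), where 1 other target rose and 0 fell. The median of the list went from -0.06 to 0.03. Of 8 receptor, Janus kinase and phosphatase genes 2 fell, the tyrosine phosphatase Ptpn1 by 0.96 and the kinase Jak3 by 0.77, and after quantile normalization 1 fell and 1 rose, Ptpn1 no longer passing (limma, adjusted p = 0.0563).

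Genes induced by the same hormones as Cebpd, Cebpb and Klf15 were also counted, since the adipogenic cocktail commonly holds a glucocorticoid and a cAMP-raising agent. All arrays came from 10 days after differentiation, so the response at induction was not measured. Of 17 glucocorticoid-induced genes 2 fell and 0 rose, with a median of -0.18 (-0.05 after quantile normalization, where 1 fell). Gadd45g, a stress-induced growth regulator, read 10.8, 8.82 and 7.11 in controls and 3.50, 4.41 and 3.21 in UCP1, 2.39-fold lower (limma, adjusted p = 0.00323), and Fkbp5, a chaperone that binds the glucocorticoid receptor, fell 1.66-fold without passing after quantile normalization (limma, adjusted p = 0.0619). Of 17 cAMP-induced genes 0 passed by limma, 5 having an unadjusted p under 0.05, the median being -0.16, and -0.04 under quantile scaling. The smallest p values there were those of the coactivator gene Ppargc1a, at -2.02 (limma, adjusted p = 0.0961), and of the CREB coactivator gene Crtc2, at -0.37 (adjusted p = 0.103). Ppargc1a was dim, reading 2.65, 0.841 and 0.591 in controls and 0.318, 0.56 and 0.11 in UCP1, so control 1 stood high. Its lowest reading was at percentile 5.34 of its array, and the difference was -1.58 with the offset. Of the 25 called genes named by rule in these lists, 18 were also called after quantile normalization and 0 without the intensity trend. With 1 array left out, 9 were called without control 1, 12 without control 2, 18 without control 3 and 4 without UCP1 array 3. All 25 kept their direction in these settings. They were picked for being called, and dropping the trend leaves every difference as it was.

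**Figure D4:**
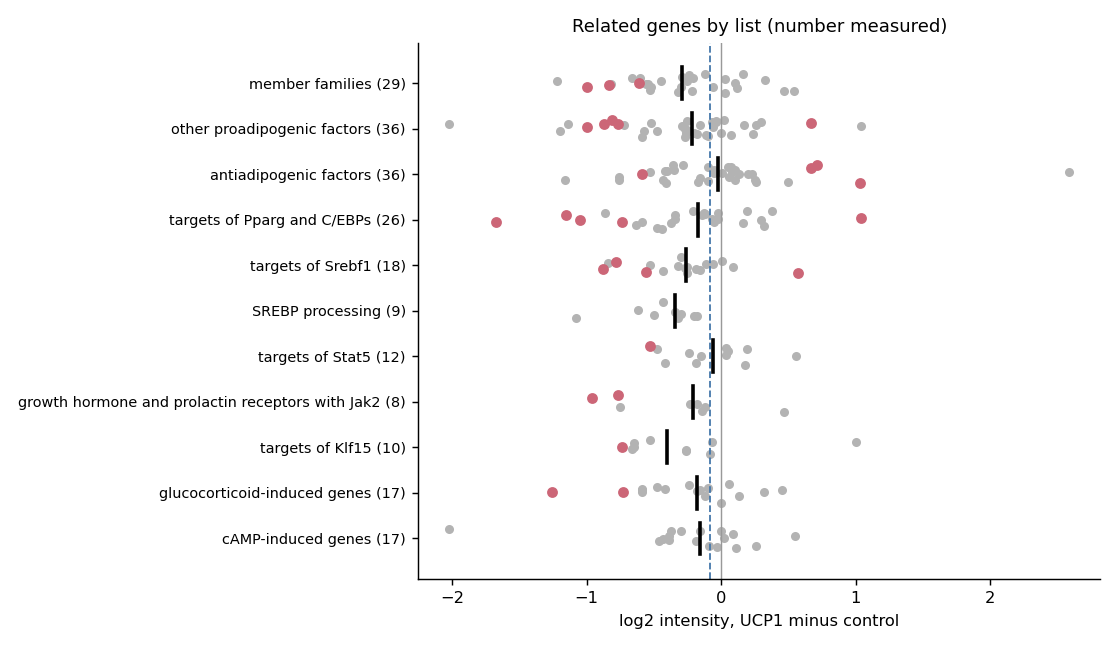
Difference in log2 intensity, UCP1 minus control, for each measured gene of the 11 lists (1 point per gene, red where adjusted p was under 0.05, vertical position within a row random), with a black bar at the median of each list and a dashed line at the median of all genes, -0.08. Red points lie on both sides of 0 in the lists of pro- and antiadipogenic factors, of targets of Pparg and C/EBPs and of targets of Srebf1.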

How the data were processed

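Biotin-labelled total RNA was measured on 6 one-colour CodeLink arrays, 3 control and 3 UCP1, grouped by the source field of the labels; the digit that closes each UCP1 title was read as an array number, which the labels do not settle. The deposited values are linear spot intensities, scaled by the authors to nearly equal medians, as the values show; the scanner software, the background correction and the way of scaling: not given in the sources used here. A value of -9999 was read as no value. Intensities at or below 0 were raised, before log2, to the lowest value above 0 on that array, which makes changes of dim probes unreliable. Groups were compared over 36116 probes with limma 3.58.1 in R 4.3.3 (lmFit, eBayes with intensity trend, two-sided, Benjamini-Hochberg over all tested probes, threshold 0.05), requiring values on at least 2 arrays per group. Ratios were tested with SciPy 1.17.1. The fit was tested on simulated data. Their noise was independent and drawn from the variances of the same fit, so the simulation could not test the variance model. The number of arrays limits the precision. Of the probes, 21615 had 1 symbol, 681 several and 13931 none, and the last 2 kinds were not named.

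The members and gene lists were chosen with earlier results of these data known, so they are no independent support. A pair of list entries was dropped after the files were opened and before any fit. All members were named, and from each list the up to 4 called genes with the largest change, or the 2 with the smallest p. Alternatives were an offset of 0.125 before log2, quantile, cyclic loess and median scaling, filters, other variance models, a replicate block, the most variable probe of each gene and each array left out; eBayes without the trend on the brighter probes was added after seeing the data. Sequences came from RefSeq, GRCm38.p6.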

Additional observations from a re-analysis of the deposited data

How the results depend on the processing

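Cebpd kept its call in 10 of the 12 alternatives and in 5 of 6 fits with 1 array left out. Filters, the replicate block, the ordinary test and the other eBayes fits leave its estimate at -1.01, so its direction could not turn there. Where values or array weights changed, it ran from -1.06 (array weights) to -0.86 (quantile normalization). With 1 array left out it ran from -1.15 to -0.92. Of the 11 member probes, 2 were called lower with the offset, with robust eBayes and with array weights. Among the 8 brighter member probes tested alone, 2 were called lower, with and without the trend. Over all probes, 0 members were called lower without the trend and with the ordinary test, and 0 to 3 with 1 array left out. None was called higher in any setting. Over all probes, quantile normalization gave 446 lower and 567 higher calls, and cyclic loess 461 and 518. Robust eBayes gave 942 and 371, the ordinary test 2 and 1, and leaving out 1 array 93 to 1610 and 66 to 395. Of the 18058 brighter probes 1716 were called lower and 523 higher, and 1645 and 490 without the trend. The other settings tested 36062 to 36116 probes. Array weights gave 1382 lower calls, and without the trend there were 0 in either direction, where 4951 probes had an unadjusted p under 0.05. With the offset, 858 were lower and 316 higher. The cause was not tested.

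Differences that turned above 0 were Pparg (0.06 quantile, 0.03 loess), Klf5 (0.01 quantile, and -0.17 to 0.03 with 1 array left out), Stat5a (0.12 quantile, 0.10 loess, 0.02 with array weights, and -0.11 to 0.09), Klf15 (0.06 with array weights, and -0.64 to 0.48), Ebf1 (-0.25 to 0.01) and the dimmer Srebf1 probe (-3.71 to 0.99). Ratios to Pparg that turned were Klf5 (-0.05 quantile, -0.04 loess), Klf15 (-0.18, -0.14, and -0.46 to 0.72 with 1 array left out) and Ebf1 (-0.06, -0.06, and -0.06 to 0.20). Against the median of all probes in place of Pparg, the differences were -0.06 for Klf5, -0.15 for Klf15, -0.13 for Ebf1 and -0.01 for Stat5a. These equal the differences after median scaling and are not ratios to Pparg. The 25 called genes named from the lists, picked for being called, kept their direction in every setting of the fit, including those that could not change it. With the most variable probe of each gene, all 22 counts of list genes called lower or higher stayed within 1.5 times.

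With the closing digit of the titles, which may not be a replicate number, as a replicate block, 551 probes were lower and 225 higher, and Cebpd stayed the 1 member called. Same-numbered arrays correlated at -0.24, -0.00693 and 0.104 in their deviations from the group means, so the numbers were not taken to pair the arrays. Signal near background limits Klf15 and both Srebf1 probes.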
